A study of Mus musculus with 25 samples.

Results

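The genes described here are the axon guidance ligands and receptors of the mouse, measured in dorsal root ganglia (DRG) of lumbar levels L3 to L5, where neurons that sense touch, position and pain in the hind limb have their cell bodies. They were chosen by symbol alone: semaphorins of classes 3 to 7, plexins, neuropilins, ephrins, Eph receptors, Slits, Robo receptors, netrins with their receptors Dcc and Unc5a to Unc5d, and the Nogo receptors. Each gene was read from the probe set with a single gene symbol and the highest mean over the 25 arrays. This gave 68 guidance genes of 30142 genes with such a probe set. Of the 68 genes, 65 were bright enough to be tested, among 20260 genes tested in all. Epha1, Robo3 and Sema3a were not tested. Nrp1, Ntn3 and Sema4a lie only on probe sets annotated to several symbols and are not among the 68 genes.

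The study used male C57BL/6 mice in 3 treatments. Naive mice had no surgery, sham mice had a sham operation, and DMM mice had destabilization of the medial meniscus, which leads to osteoarthritis of the operated joint. Mice were operated on the right knee when 10 weeks old, and ganglia were taken 4, 8 or 16 weeks later. The naive mice were 14, 18 or 26 weeks old when their ganglia were taken, the ages that the operated mice had reached at 4, 8 and 16 weeks. Each of the 9 groups has 3 arrays, except sham mice at 8 weeks with 1 array, so no comparison of treatments with sham was made at 8 weeks. How many mice stand behind an array, and whether ganglia of both sides were used, is not stated in the labels. The p-values therefore measure the spread between these samples, which may be partly technical.

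Guidance cues are secreted or membrane-bound proteins that attract or repel growing axons. Class 3 semaphorins are secreted and signal through neuropilins and plexins, while semaphorins of the other classes studied here are bound to the membrane and mostly bind plexins directly. Slits signal through Robo receptors, netrins through Dcc and Unc5 receptors, and ephrins through Eph receptors on a neighbouring cell. Nogo receptors bind myelin proteins that limit axon regrowth. Sensory neurons keep many of these receptors in adult life, and some are known to change after nerve damage.

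Promoter sequence was given by RefSeq for 57 of the 68 genes, on build GRCm38.p6. The 250 bases before the gene start are shown for 3 genes whose values carry the results that follow: Plxnd1, the semaphorin receptor with the smallest p-value among guidance genes between 4 and 16 weeks in naive mice; Epha5, the ephrin receptor that was lower at 16 weeks in naive and in sham mice; and Sema3d, a secreted semaphorin that was high on 2 arrays of DMM mice. Capitals mark matches to the motifs searched.
Plxnd1, chr6:115995006-115995255, minus strand: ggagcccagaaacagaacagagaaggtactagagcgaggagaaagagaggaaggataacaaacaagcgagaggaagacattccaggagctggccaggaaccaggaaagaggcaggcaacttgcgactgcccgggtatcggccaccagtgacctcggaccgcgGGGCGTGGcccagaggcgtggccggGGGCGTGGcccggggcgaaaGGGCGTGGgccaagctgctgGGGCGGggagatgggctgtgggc
Epha5, chr5:84417383-84417632, minus strand: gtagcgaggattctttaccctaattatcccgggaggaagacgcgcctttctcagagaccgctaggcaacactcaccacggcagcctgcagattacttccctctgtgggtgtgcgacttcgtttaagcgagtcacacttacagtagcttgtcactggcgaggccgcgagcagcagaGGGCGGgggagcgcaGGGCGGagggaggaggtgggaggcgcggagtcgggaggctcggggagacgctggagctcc
Sema3d, chr5:12382916-12383165, plus strand: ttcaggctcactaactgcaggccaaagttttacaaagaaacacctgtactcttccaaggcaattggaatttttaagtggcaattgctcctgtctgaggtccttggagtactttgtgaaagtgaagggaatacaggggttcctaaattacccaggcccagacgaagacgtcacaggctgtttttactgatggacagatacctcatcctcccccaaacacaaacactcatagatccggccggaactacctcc
The Plxnd1 window holds 3 matches to GGGCGTGG and 1 to the GC box GGGCGG. Epha5 has 2 GC boxes, and Sema3d has no match to any motif searched. Both strands of the 250 bases before the start were searched, in 32851 windows of all genes and 70 windows of guidance genes. GGGCGG was in 71.4% of the guidance windows and in 32.7% of all windows. GGGCGTGG was in 8.57% and 4.79%, the E-box CACGTG in 5.71% and 6.02%, the AP-1 motif TGANTCA in 4.29% and 6.75%, and the CRE motif TGACGTCA in 1.43% and 1.55%. These matches describe the letters only and are not binding sites.

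Values are given on the log2 scale on which they were deposited, so a difference of 1 is a 2-fold change, and values of different probe sets cannot be ranked against each other. The median of all probe sets was between 4.88 and 4.97 on the 25 arrays. The median of the negative control probe sets was 5.35 on the array where it was highest, and 55 of the 68 genes had a mean above that value. The 10 sensory neuron markers were all above it, with list means between 15.52 and 15.69 on the 25 arrays, so the labelled tissue was seen on every array. The array means of the sheath list, 13 measured genes of fibroblasts and the meningeal covering, spread from 8.26 to 10.61. Those of the nerve injury list, 15 measured genes that sensory neurons raise after axon damage, such as Atf3, Sprr1a and Gal, spread from 6.85 to 8.89. Both lists are given below beside the guidance genes that moved with them. In whole ganglia, fewer cells of a type and less RNA per cell cannot be told apart.

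All 9 plexins, all 3 Slits and the 3 Nogo receptors were above the negative controls, as were Nrp2 and 18 of 19 semaphorins. Only 6 of 13 Eph receptors were, against 6 of 8 ephrins. Among the netrin receptors 4 of 5 passed, Dcc being the exception. Sema3a, the repellent cue best known for turning away sensory axons, read between 3.95 and 4.2 with a median of 4.04. It was below the brightness limit of 4.52, so no statement about its response can be made. Dcc, the receptor through which netrins attract axons, read 4.83 to 5.21 with a median of 5.02, so no array exceeded 5.35, the highest median of the negative controls. Unc5b, a receptor for netrin repulsion, kept within 5.54 to 5.78, with a median of 5.67. Ephb1, an ephrin-B receptor, read 4.91 to 5.66 with a median of 5.22 and was likewise not above the negative controls.

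Over all 9 groups, 3 of 65 guidance genes differed at an adjusted p under 0.05 in limma's F test, 4.62% of those tested, where 10.8% of all genes did. They were Epha5 (adjusted p = 0.0128), Plxnd1 (adjusted p = 0.0258) and the Robo ligand Slit1 (adjusted p = 0.0383). The share was thus below that of all genes. Leaving out 1 array at a time, Epha5 stayed past the threshold, Plxnd1 missed it without any of 5 naive arrays (replicates 2 and 3 at 4 weeks and all 3 at 16 weeks; adjusted p 0.0553 to 0.0625), and Slit1 missed it for 12 of the 25 arrays (adjusted p 0.0502 to 0.131). Those 12 are all 3 naive arrays at 4 weeks, all 3 at 8 weeks, replicates 1 and 3 at 16 weeks, and replicate 1 of sham at 4, DMM at 4, DMM at 8 and sham at 16 weeks. Slit1 also missed it with a replicate block, the replicate number as a term of the fit (adjusted p = 0.0647). Plxna2, which did not pass with all arrays, passed when 1 of 5 arrays was left out (adjusted p 0.0167 to 0.0476). These were naive 3 at 4 weeks, DMM 3 at 4 weeks, DMM 2 and 3 at 8 weeks, and sham 3 at 16 weeks.

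Naive mice at 4 and 16 weeks differed in 10 guidance genes. No difference between operated mice and controls, at a single time or averaged over times, was called for any. Only a change of such a difference over time was called, for Plxnd1, as given below. Between 4 and 16 weeks, when naive mice aged from 14 to 26 weeks, 10 of 65 guidance genes passed, 8 higher and 2 lower at 16 weeks. That is 15.4%, against 18.8% of all genes, so guidance genes were not called more often than genes at large. The median difference over the 65 genes was 0.001, and over all genes -0.067. For all 10 genes the arrays of the 2 ages did not overlap. They were chosen for this same difference, so that is a description only. The 38.9% of all genes without overlap were not chosen and are no like measure.

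Receptors and a ligand of the Slit, semaphorin and netrin systems were among the genes that rose. Plxnd1, the plexin that binds Sema3e, read 11.24, 11.06 and 11.14 at 4 weeks and 11.68, 11.7 and 11.77 at 16 weeks in naive mice. It rose by 0.57 ± 0.11 (SE; 1.48-fold; adjusted p = 0.0017). Every array at 16 weeks was above every array at 4 weeks, and the 8-week arrays (11.68, 11.33 and 11.5) lay at or between those levels. Slit1 read 11.01, 10.82 and 10.74 at 4 weeks and 11.89, 11.51 and 11.72 at 16 weeks. Its rise of 0.85 ± 0.17 (1.8-fold; adjusted p = 0.0031) was the largest among the 65 genes. At 8 weeks it had already reached 11.76, 11.61 and 11.67. Robo2, a receptor of the Slits, rose with it, from 11.07, 10.96 and 10.84 to 11.37, 11.31 and 11.28, by 0.36 ± 0.08 (adjusted p = 0.00409). Its relative Robo1 did not pass, at 7.81, 7.83 and 7.98 at 4 weeks and 7.79, 7.74 and 7.86 at 16 weeks.

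The other 5 genes that rose did so by smaller or more variable steps. Plxnc1, the receptor of Sema7a, went from 14.07, 13.82 and 13.82 to 14.38, 14.31 and 14.27 (0.42 ± 0.12; adjusted p = 0.018). Rtn4rl1, a Nogo receptor relative, went from 9.66, 9.53 and 9.51 to 10.1, 10.07 and 9.92 (0.46 ± 0.14; adjusted p = 0.0253). Efna5, an ephrin-A ligand, went from 9.9, 9.89 and 9.58 to 10.11, 10.23 and 10.15 (0.38 ± 0.12; adjusted p = 0.0346). Array 3 at 4 weeks held or shared the lowest value of all 3 genes. Unc5a, a receptor for netrin repulsion, rose by 0.26 ± 0.08 (adjusted p = 0.0321) and Sema5b, a transmembrane semaphorin, by 0.17 ± 0.05 (adjusted p = 0.0356). These 5 calls each ended when 1 of 3 or 4 arrays was left out. Plxnc1 then had adjusted p 0.063 to 0.0735 (naive 2 or 3 at 4 weeks, naive 1 at 16 weeks). Rtn4rl1 had 0.0662 to 0.0902 (naive 2 or 3 at 4 weeks, naive 1 or 2 at 16 weeks), and Efna5 0.0671 to 0.171 (naive 3 at 4 weeks, any naive array at 16 weeks). For Unc5a the values were 0.0806 to 0.156 (naive 1 or 3 at 4 weeks, naive 3 at 16 weeks) and for Sema5b 0.0591 to 0.142 (naive 1 or 3 at 4 and at 16 weeks). Sema5b also missed the threshold with the replicate block (0.17; adjusted p = 0.0508), with no limit on brightness (adjusted p = 0.0558) and with only the groups compared (adjusted p = 0.131). Unc5a missed it with only the groups compared (adjusted p = 0.0804) and with the sheath list mean as a covariate (adjusted p = 0.0563). Efna5 missed it with that covariate (adjusted p = 0.0606). The differences of these 5 genes stayed positive in each case.

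An Eph receptor and a transmembrane semaphorin fell. Epha5, an ephrin-A receptor, read 7.42, 7.13 and 7.52 on the 4-week arrays of naive mice, then 6.99, 6.92 and 6.85 at 8 weeks, and finally 6.7, 6.71 and 6.68 at 16 weeks. It fell by 0.66 ± 0.15 (adjusted p = 0.0064), and the 3 ages did not overlap. Sema6a, a ligand of Plxna4 and Plxna2, read 9.96, 9.97 and 10.53 on the 4-week arrays, then 8.94, 9 and 9.24 at 8 weeks, and finally 8.95, 8.88 and 8.95 at 16 weeks. Its fall of 1.23 ± 0.32 (2.34-fold; adjusted p = 0.0118) was the largest change of any of the 65 genes, and most of it lay between 4 and 8 weeks. Without naive array 3 at 4 weeks the difference was -1.04 and the adjusted p 0.0616. In 9 of the 10 genes the naive mean at 8 weeks lay between those at 4 and 16 weeks, Unc5a being the exception. The genes were chosen for a wide gap between these 2 ages, and all genes were not counted likewise. That count is therefore a description only.

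**Figure D1:**
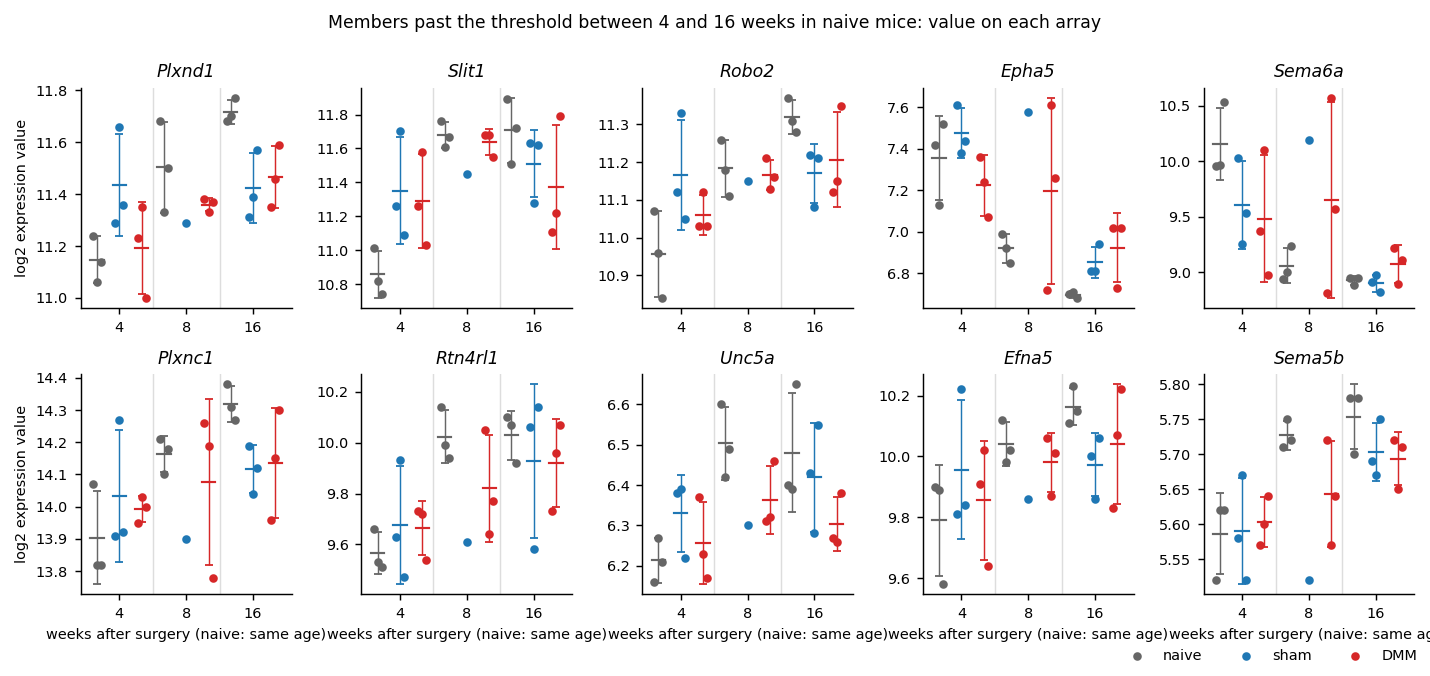
Log2 expression value (y axis) of the 10 guidance genes that passed between 4 and 16 weeks in naive mice, on each array (points) by weeks after surgery and treatment (colour); horizontal lines are group means and bars 1 SD, with none for the 1 sham array at 8 weeks. Grey naive points step up from 4 to 16 weeks for 8 genes and down for Epha5 and Sema6a, as in Plxnd1, from 11.06 to 11.24 at 4 weeks to 11.68 to 11.77 at 16 weeks.

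By family, 2 of 9 tested plexins rose, and so did 1 of 3 Slits, 1 of 3 Robo receptors, 1 of 3 Nogo receptors, 1 of 5 netrin receptors and 1 of 8 ephrins. Of 18 semaphorins 1 rose and 1 fell, of 12 Eph receptors 1 fell, and none of the 3 netrins passed. The single neuropilin, Nrp2, the co-receptor for Sema3f, read 10.39, 10.39 and 10.46 at 4 weeks and 10.71, 10.65 and 10.57 at 16 weeks. Its difference of 0.23 ± 0.13 did not pass (adjusted p = 0.234).

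The mean levels of several cell type lists also differed between the same naive arrays. The nerve injury list ran from 8.74 to 8.89 at 4 weeks and from 6.92 to 7.03 at 16 weeks, the macrophage list from 7.5 to 7.85 and from 6.85 to 7.02, and the satellite glia list from 11.63 to 11.88 and from 11.4 to 11.5. The sheath list was lower at 16 weeks too (9.25 to 9.41, then 8.58 to 9.21), and the pericyte and smooth muscle list was higher (7.48 to 7.55, then 7.7 to 7.82). The myelinating Schwann cell list was mostly lower at 16 weeks (10.66 to 10.94, then 10.31 to 10.67), with a narrow overlap. The sensory neuron list did not separate the ages (15.55 to 15.65 and 15.61 to 15.63). With the nerve injury list mean as a covariate, a setting chosen after the data were seen, 4 of 65 guidance genes passed, and 1779 of the 20260 genes tested. Plxnd1 kept a rise of 0.61 ± 0.16 (adjusted p = 0.0286) and Slit1 of 1.05 ± 0.26 (adjusted p = 0.0214), and the transmembrane semaphorins Sema4b (0.53 ± 0.16; adjusted p = 0.0416) and Sema6d (0.4 ± 0.11; adjusted p = 0.0348) passed as well, though they did not without the covariate. The difference of Epha5 shrank to -0.22 ± 0.19 (adjusted p = 0.503), and that of Sema6a turned to 0.17 ± 0.23 (adjusted p = 0.663). Robo2, Plxnc1, Efna5 and Unc5a kept differences of 0.33, 0.44, 0.36 and 0.27 with adjusted p of 0.0943, 0.133, 0.23 and 0.19. Rtn4rl1 had 0.32 (adjusted p = 0.358) and Sema5b 0.07 (adjusted p = 0.571). Age and the level of this list went together in naive mice, since all 3 naive arrays at 4 weeks were high and all 3 at 16 weeks low, so their parts cannot be told apart.

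Operated mice allow the same interval to be read on other arrays, in comparisons added after the data were seen. In sham mice 1 of 65 guidance genes passed between 4 and 16 weeks (all genes 1.76%). Epha5 read 7.61, 7.38 and 7.44 at 4 weeks and 6.81, 6.81 and 6.94 at 16 weeks, a fall of 0.62 ± 0.15 (adjusted p = 0.0432). The replicate block (adjusted p = 0.067) and leaving out any 1 of these 6 arrays ended the call (adjusted p 0.0614 to 0.144), with the difference between -0.67 and -0.55. Sema4f, a transmembrane semaphorin, was lower by 0.41 ± 0.11 without passing (adjusted p = 0.0588), and passed without sham array 3 at 4 weeks (-0.5; adjusted p = 0.0498). In DMM mice none of the 65 genes passed, where 2.87% of all genes did. At an unadjusted p under 0.05 there were 4 (all genes 18.4%): Plxnd1 (0.28 ± 0.11; adjusted p = 0.164), Plxna4 (-0.59 ± 0.24; adjusted p = 0.191), Epha4 (0.41 ± 0.17; adjusted p = 0.201) and Sema5a (-0.31 ± 0.14; adjusted p = 0.222).

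The 10 genes above were chosen for their naive difference, so its size beside that in the other mice is a description only. Arrays of the 2 ages did not overlap for 2 of the 10 in sham mice and for 3 of the 10 in DMM mice, as against 25.9% and 22.8% of all genes. Slit1 differed by 0.16 ± 0.17 in sham and 0.09 ± 0.17 in DMM mice, with 95% intervals of -0.21 to 0.52 and -0.28 to 0.45. Epha5 differed by -0.3 ± 0.15 in DMM mice, from 7.36, 7.24 and 7.07 to 7.02, 6.73 and 7.02. Sema6a differed by -0.7 ± 0.32 in sham and -0.41 ± 0.32 in DMM mice.

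**Figure D2:**
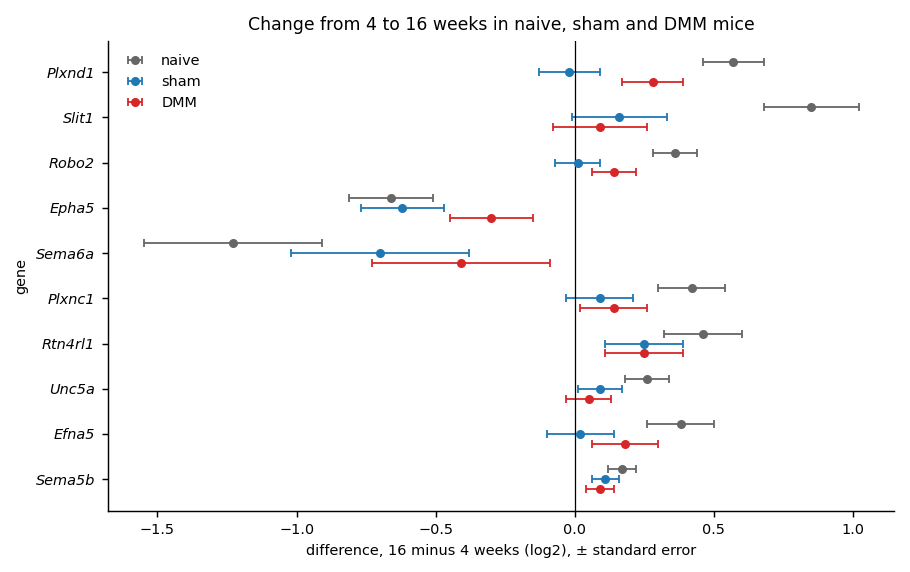
Difference between 16 and 4 weeks on the log2 scale (x axis; point with standard error) for the 10 genes called in naive mice (y axis), in naive (grey), sham (blue) and DMM (red) mice, 3 arrays per group. The genes were chosen for their naive difference, so its distance from 0 is no finding; Epha5 in sham mice, at -0.62, is the only other difference shown that passed.

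For Plxnd1 the difference between sham and naive mice itself changed over time, in a call that several settings ended. At 4 weeks the sham arrays read 11.29, 11.66 and 11.36, all above the naive arrays, a difference of 0.29 ± 0.11. At 16 weeks they read 11.31, 11.39 and 11.57, all below the naive arrays, a difference of -0.29 ± 0.11. The change of -0.59 ± 0.15 passed in limma (adjusted p = 0.0479), the only one of 65 genes to do so (all genes 2.09%). The call ended with the replicate block (-0.59; adjusted p = 0.0652), and same-numbered naive and sham arrays at 16 weeks did deviate together. It also ended with the sheath list mean as a covariate (-0.49; adjusted p = 0.133), with only the 4 groups compared (adjusted p = 0.0512) and with no limit on brightness (adjusted p = 0.0679). The sheath list crossed over on these arrays: at 4 weeks its mean was 8.82 in the sham group against 9.33 in the naive group, and at 16 weeks 9.33 against 8.88. The macrophage list did so too, with 7.06 against 7.62 and then 7.23 against 6.96. So did the myelinating Schwann cell list, with 10.67 against 10.84 and then 10.78 against 10.49. Their part in the change of Plxnd1 was not tested beyond the sheath covariate. Between the ages, sham mice differed by -0.02 ± 0.11 and naive mice by the 0.57 given above. Without 1 of 10 of the 12 arrays, all 6 naive arrays, sham 2 and 3 at 4 weeks and sham 1 and 2 at 16 weeks, the adjusted p was between 0.0576 and 0.116 and the change between -0.63 and -0.47. For DMM against naive mice the same change was -0.29 ± 0.15 (adjusted p = 0.492). None of the 65 genes passed in that comparison (all genes 0.00494%), and 1 had an unadjusted p under 0.05 (all genes 10.6%). It was Slit1, with -0.76 ± 0.25 (adjusted p = 0.352). Robo2 and Plxnb2 followed at -0.22 ± 0.11 and 0.21 ± 0.11.

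Sema6a was high on the same arrays as the nerve injury list. They include the 3 naive arrays at 4 weeks that give its difference between 4 and 16 weeks in naive mice. On 7 arrays the list mean was between 8.49 and 8.89, and on the other 18 between 6.85 and 7.92. The 7 arrays were naive 1, 2 and 3, sham 1 and DMM 2 at 4 weeks, and sham 1 and DMM 2 at 8 weeks, so they came from all 3 treatments and none from 16 weeks. Sema6a read 9.96 to 10.57 on the 7 arrays and 8.81 to 9.57 on the other 18, with no overlap. Within DMM mice at 8 weeks it read 8.81, 10.57 and 9.57, which spans its whole range over the 25 arrays. The nerve injury list names Sema6a as a gene raised after nerve damage, and its mean was taken without Sema6a. The lists were chosen with earlier results of these data known. That Sema6a moved with the other genes of its list is therefore a description only. Plxna4, a receptor for Sema6a and part of the receptor for Sema3a, read 11.68 to 12.52 on the 7 arrays and 10.96 to 12.2 on the others. Epha5 read 7.13 to 7.61 and 6.68 to 7.44. Both overlapped, and both were highest on arrays of the 7. Robo2 and Slit1, in contrast, had their 2 lowest values on naive arrays among the 7. Sema6a had the largest residual SD of the 65 genes, 0.423, and Plxna4 the fourth, 0.321, where the median over all genes was 0.121.

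**Figure D3:**
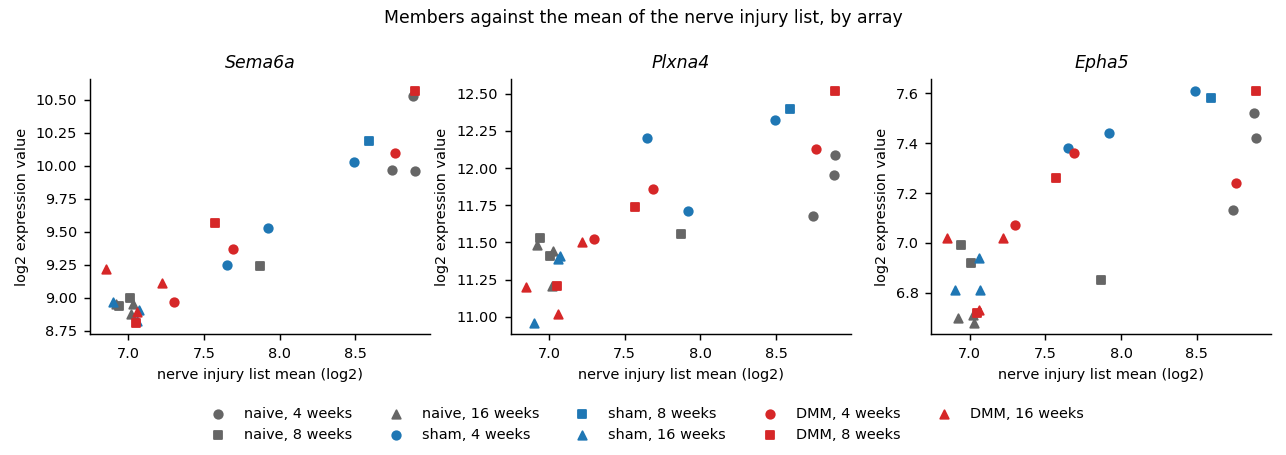
Log2 expression value of Sema6a, Plxna4 and Epha5 (y axis) against the mean of the 15 nerve injury genes (x axis) on the 25 arrays; colour gives the treatment and shape the time. The 7 arrays with list means of 8.49 or more hold the 7 highest Sema6a values, 9.96 to 10.57.

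No guidance gene passed in any of the 4 comparisons of DMM with naive mice. For the average over the 3 times, all genes passed at 0.0444%, and 2 guidance genes had an unadjusted p under 0.05 (all genes 7.32%). These were Sema4g, a transmembrane semaphorin, with -0.14 ± 0.04 (adjusted p = 0.474), and the ligand Efna2 with -0.17 ± 0.06 (adjusted p = 0.534). Sema3d (0.28 ± 0.14) and Sema6c (-0.1 ± 0.05) followed. The median averaged difference was -0.007 over the 65 guidance genes and -0.009 over all genes. The 95% interval of the averaged difference lay within 0.5 either way for 63 of the 65 genes, so average effects above that size fall outside the interval for most guidance genes.

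At 4 weeks 0 of 65 passed (all genes 0.00987%) and 6 had an unadjusted p under 0.05 (all genes 8.8%). Slit1 led, at 11.26, 11.58 and 11.03 on DMM arrays, all above the naive values already given, with 0.43 ± 0.17 (adjusted p = 0.489). Epha6, an ephrin-A receptor, was next (0.37 ± 0.16), then Sema6b (-0.18 ± 0.08) and Ntn5 (-0.17 ± 0.08). At 8 weeks 0 of 65 passed (all genes 0.0494%), and 4 had an unadjusted p under 0.05 (all genes 8.49%). Efna2 read 5.25, 5.31 and 5.07 in DMM and 5.43, 5.48 and 5.72 in naive mice, a difference of -0.33 ± 0.1 (adjusted p = 0.292). The arrays did not overlap, and the 3 DMM values were under 5.35, the highest median of the negative controls. Overlap was not counted over all genes at 4 or 8 weeks, so it is a description only. Sema4g (-0.21 ± 0.08), Ntn4 (-0.34 ± 0.14) and Sema3b (-0.38 ± 0.16) had adjusted p from 0.406 to 0.494.

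At 16 weeks 0 of 65 passed (all genes 0.0148%), and 7 had an unadjusted p under 0.05 (all genes 8.81%). The largest difference was that of Sema3d, a secreted semaphorin, which read 8.87, 9.16 and 8.07 in DMM mice and 7.87, 8.36 and 7.94 in naive mice (0.64 ± 0.24; adjusted p = 0.506). DMM arrays 1 and 2 were the highest of all 25, while DMM array 3 lay within the naive range. Efna1 (-0.39 ± 0.17; adjusted p = 0.543), Plxnd1 (-0.25 ± 0.11; adjusted p = 0.544) and Plxnb2 (0.18 ± 0.08; adjusted p = 0.549) came next. For Plxnd1 the DMM arrays (11.35, 11.46 and 11.59) were all below the naive arrays, as the sham arrays were. DMM and sham mice share the naive arrays as controls in these comparisons, and overlap was not counted over all genes in them.

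Leaving out DMM array 3 at 16 weeks changed this comparison. Then 3 of 65 guidance genes passed, where 1.6% of all genes did. They were Sema3d (0.96 ± 0.22; adjusted p = 0.0319), the Eph receptor Epha4 (0.62 ± 0.13; adjusted p = 0.0207) and Robo1 (0.45 ± 0.11; adjusted p = 0.0427). Epha4 also passed between 16 and 4 weeks in DMM mice without that array (0.69 ± 0.13; adjusted p = 0.0195). With all arrays Epha4 differed between DMM and naive mice by 0.34 ± 0.17 and Robo1 by 0.27 ± 0.12 (adjusted p 0.59 and 0.557).

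The 2 DMM arrays that raised these genes also had the 2 highest means of the sheath list, 9.99 and 10.61, and the other 23 arrays lay between 8.26 and 9.69. DMM array 3 at 16 weeks, at 8.41, had the second lowest. Sema3d read 8.87 and 9.16 on the 2 arrays and at most 8.43 elsewhere. Epha4, at 6.6 and 6.93 against at most 6.25, Epha3, at 5.35 and 5.69 against at most 5.29, Robo1, at 8.16 and 8.33 against at most 8.08, and Efnb2, a transmembrane ephrin of vessels and neurons, at 11.06 and 11.25 against at most 11.01, were also highest there. Ntn1, the founding netrin, read 8.22 on the array with the highest list mean and between 6.53 and 7.45 on all the others. The array with the lowest list mean, DMM 2 at 8 weeks at 8.26, had the lowest value of Sema3d (7.56), Epha4 (5.71), Epha3 (4.8), Robo1 (7.64), Efnb2 (10.35) and Slit2 (7.4). Further guidance genes were lowest there too, such as Epha6 (8.68), Plxnb1 (6.29) and Sema3b (8.81). Its nerve injury list mean, 8.89, was at the top of the range over the arrays. How many of all genes were highest or lowest on these arrays was not counted, so the match with the sheath list is a description only. With the sheath list mean as a covariate, chosen after the data were seen, the difference of Sema3d between DMM and naive mice at 16 weeks was 0.19 ± 0.09 (adjusted p = 0.939), that of Epha4 0.03 ± 0.09 and that of Robo1 0.07 ± 0.08. The part of sheath tissue in these differences was not tested apart from this fit.

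**Figure D4:**
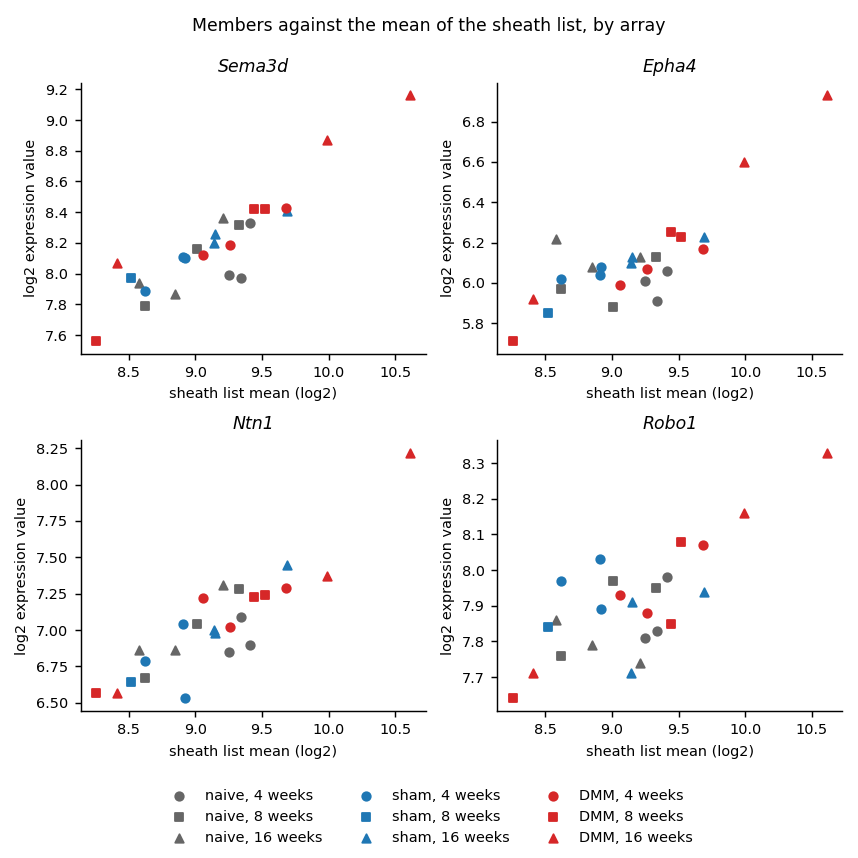
Log2 expression value of Sema3d, Epha4, Ntn1 and Robo1 (y axis) against the mean of the 13 sheath genes (x axis) on the 25 arrays; colour gives the treatment and shape the time. DMM arrays 1 and 2 at 16 weeks, at list means of 9.99 and 10.61, lie at the upper right, and DMM array 3 at 16 weeks lies at the left at 8.41.

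Against sham mice, which share the operation but not the joint damage, DMM mice again had 0 of 65 guidance genes past the threshold. This held for the average over 4 and 16 weeks (all genes 0.00987%), at 4 weeks (all genes 0%) and at 16 weeks (all genes 0.00494%). The median difference was -0.064 over the 65 genes at 4 weeks, with 19 higher and 46 lower, and 0.01 over all genes. At 16 weeks it was 0.017 over the 65 genes, with 36 higher and 29 lower, and -0.013 over all genes. Unadjusted p-values under 0.05 were found for 5, 4 and 2 genes, where all genes had 4.88%, 4.68% and 6.45%. Rtn4r, the Nogo receptor, had the smallest p-value. At 16 weeks it read 5.87, 6.17 and 6.05 in DMM and 6.41, 6.45 and 6.4 in sham mice, a difference of -0.39 ± 0.09 (adjusted p = 0.601). The groups did not overlap, and the naive arrays (6.18, 6.21 and 6.2) lay between them. Rtn4r was named for its small p-value, and overlap was not counted over all genes in this comparison. At 4 weeks Rtn4r read 5.96, 6.15 and 6.07 in DMM and 6.17, 6.37 and 6.12 in sham mice, which overlap. The average over both times was -0.27 ± 0.06 (adjusted p = 0.517), with Rtn4rl2, a relative, at -0.14 ± 0.06, Sema4g at -0.14 ± 0.05 and Efna4 at 0.17 ± 0.06 (adjusted p = 0.958 each). At 4 weeks alone Plxna2 (-0.35 ± 0.14), Plxnd1 (-0.25 ± 0.11), Sema4g (-0.18 ± 0.08) and Efnb1 (0.2 ± 0.09) led, all with adjusted p = 0.986. At 16 weeks Efna4 (0.19 ± 0.09), Rtn4rl2 (-0.15 ± 0.08) and Epha4 (0.33 ± 0.17) followed Rtn4r. For the average, the 95% interval lay within 0.5 either way for 63 of the 65 genes.

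**Figure D5:**
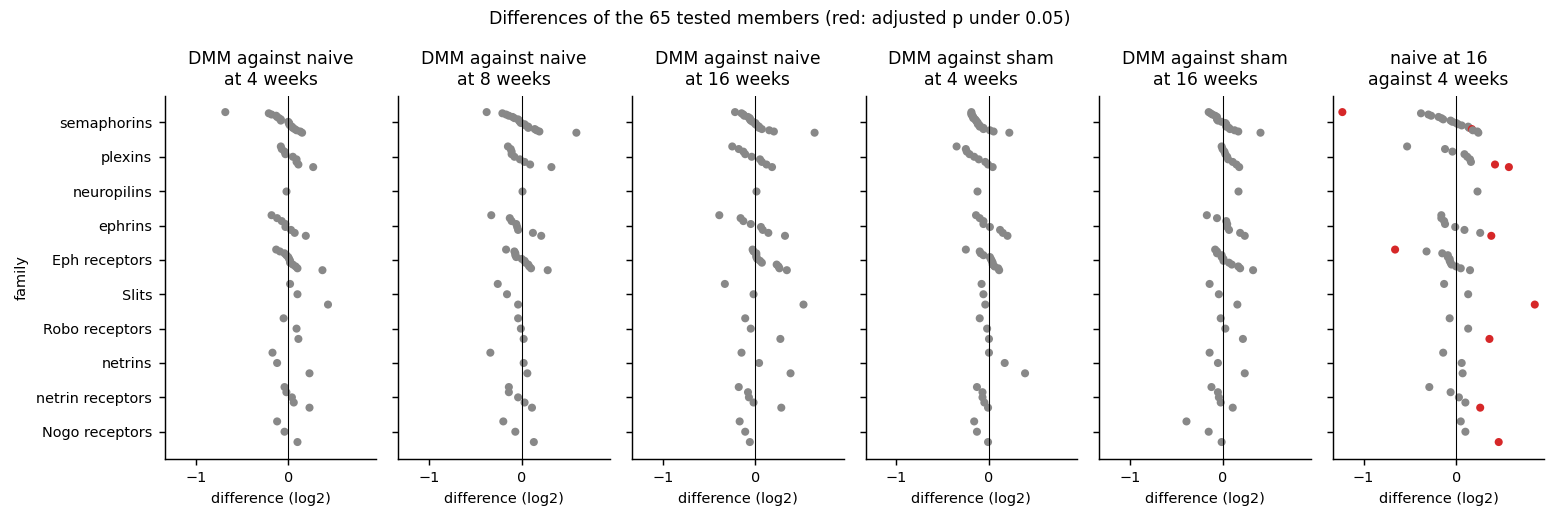
Differences on the log2 scale (x axis) of the 65 tested guidance genes, 1 point per gene, grouped by family (y axis), for 5 comparisons of DMM with naive or sham mice and for naive mice at 16 against 4 weeks. The 10 red points passed at an adjusted p under 0.05, and all of them are in the comparison of ages in naive mice, where Sema6a lies at -1.23 and Slit1 at 0.85.

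Sham and naive mice did not differ in any guidance gene past the threshold at either time. At 4 weeks 0 of 65 passed (all genes 0.331%), and 10 had an unadjusted p under 0.05, 15.4% against 15.9% of all genes. Plxna2, a semaphorin receptor, came nearest, with 11.92, 12.13 and 12.01 in sham and 11.33, 11.23 and 11.62 in naive mice (0.62 ± 0.14; adjusted p = 0.0553). DMM arrays at 4 weeks read 11.8, 11.77 and 11.44, below all sham arrays, with the lowest inside the naive range. Epha6 (0.48 ± 0.16; adjusted p = 0.147), Slit1 (0.49 ± 0.17; adjusted p = 0.171) and Plxnd1 (0.29 ± 0.11; adjusted p = 0.178) were also higher on all sham arrays than on all naive arrays. These genes were named for their small p-values, and overlap was not counted over all genes here, so that is a description only. At 16 weeks 0 of 65 passed (all genes 0.00494%), and 3 had an unadjusted p under 0.05 (all genes 10.8%). Beside Plxnd1 they were Rtn4r (0.22 ± 0.09; adjusted p = 0.369) and Epha8 (0.13 ± 0.06; adjusted p = 0.447), and Efna2 came next (-0.21 ± 0.1). The nerve injury list ran from 7.65 to 8.49 on the sham arrays at 4 weeks, below all 3 naive arrays. The sheath list (8.62 to 8.92 in sham, 9.25 to 9.41 in naive mice) and the macrophage list (6.93 to 7.22 and 7.5 to 7.85) were likewise lower on all sham arrays. With the nerve injury or the sheath list mean as a covariate, settings chosen after the data were seen, no guidance gene passed at 4 weeks either. Over all alternative runs, these 2 included, the difference at 4 weeks was 0.54 to 0.74 for Plxna2 and 0.3 to 0.55 for Epha6. It was 0.32 to 0.62 for Slit1 and 0.18 to 0.37 for Plxnd1. The part of the macrophage list was not tested.

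Several well known guidance genes showed no difference that passed in any comparison. Sema4d, a semaphorin that binds Plxnb1, read 8.01 to 8.65 with a median of 8.36 over the 25 arrays, and Plxnb1 6.29 to 6.75 with a median of 6.5. Sema7a, the membrane-anchored ligand of Plxnc1, ranged from 9.96 to 10.97 with a median of 10.56. Nrp2 kept within 10.19 to 10.83 with a median of 10.49. None of these ranges set a treatment apart. Slit2 and Ntn1 were among the most variable, with residual SDs of 0.34 and 0.381. Slit2 read 7.4 to 8.53 with a median of 8.01, and Ntn1 6.53 to 8.22 with a median of 7.02. The 95% interval for Ntn1 between DMM and naive mice at 16 weeks ran from -0.22 to 0.97.

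The proteins that act with and behind these receptors were read from a list of 67 genes of co-receptors, adhesion partners and cytoplasmic effectors, of which 63 were tested. Between 4 and 16 weeks in naive mice 16 of the 63 passed, 10 higher and 6 lower, where 18.8% of all genes did. Over all 9 groups 11 passed (all genes 10.8%). The 4 with the smallest p-values over all groups all passed in naive mice. L1cam, an adhesion molecule of axons, rose from a mean of 14.81 to 15.33 (0.52 ± 0.09; adjusted p = 0.0014), and Mical1, an enzyme that disassembles actin downstream of plexins, from 8.62 to 9.16 (0.54 ± 0.11; adjusted p = 0.00237). Gap43, a growth cone protein that the nerve injury list also holds, fell from 11.17 to 10.43 (by 0.74 ± 0.15; adjusted p = 0.00335), and Dpysl3, a collapsin response mediator, from 14.12 to 13.85 (by 0.28 ± 0.07; adjusted p = 0.0142). In sham mice 2 of the 63 fell between the ages (all genes 1.76%). Dpysl3 fell again (by 0.3 ± 0.07; adjusted p = 0.0439), and so did Farp2, an effector of plexins (by 0.4 ± 0.1; adjusted p = 0.0432), named after its value was seen. Of the change in the sham difference 1 of the 63 passed (all genes 2.09%), Dscam, a netrin receptor outside the families above, with a negative change. In DMM mice between the ages, and in each comparison of DMM or sham with controls at one age, 0 of the 63 passed.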

How the data were processed

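RNA from 25 DRG samples was measured on 1-colour Affymetrix arrays after biotin labelling, per the labels. The authors deposited 1 value per probe set and array, summarized over probes on a log2 scale, as read from the values themselves (2.23 to 19.7, with like medians on all arrays). How probes were summarized and arrays normalized, and with which software, is not stated in the labels. Of 65956 transcript probe sets, 30604 carry 1 gene symbol, 2146 several and 33206 none in the platform annotation, with 827 symbols updated through gene IDs. Each gene was read from its probe set of highest mean, and 20260 genes above the 40th percentile of probe set means (4.52) were tested.

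limma 3.58.1 in R 4.3.3 fitted 1 mean per group over all 25 arrays, with empirical Bayes moderation and Benjamini-Hochberg adjustment over all genes tested (16 residual degrees of freedom). The 95% interval of a difference between 3 and 3 arrays had a half-width of 0.203 at the median SD after this moderation. The procedure was tested on simulated data. The genes and lists were chosen with earlier results of these data known. Named are all guidance genes that passed, otherwise the 4 with the smallest p-values per comparison, 20 fixed genes, the 4 most variable genes and 4 of the downstream list; Epha3, Sema4b, Sema4f, Sema6d, Dscam and the further genes of the sheath pattern were named after their values were seen. Nrp1, one of the 20, has no probe set of its own. Alternatives covered the brightness limit, normalization, prior, array weights, replicate block, arrays left out and 2 covariates, the last added after the data were seen with 3 comparisons. For sham and naive mice at 16 weeks, the 3 same-numbered pairs of arrays deviated together (r 0.108 to 0.308), and the replicate block left 0 guidance genes called there as before but ended the call of Plxnd1 for the change of that difference. No values of other samples were used.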

Additional observations from a re-analysis of the deposited data

Results flagged for a closer look

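The difference of Plxnd1 between sham and naive mice had opposite signs at 4 and 16 weeks, with every sham array above every naive array at 4 weeks (0.29) and below at 16 weeks (-0.29). The change of -0.59 passed in limma (adjusted p = 0.0479), but it missed the threshold in 14 of 23 alternative runs, the replicate block and the sheath covariate among them.

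Epha8, an ephrin receptor with values below the negative controls' highest median, had every sham array below every naive array at 4 weeks (-0.09) and above at 16 weeks (0.13). The change of 0.22 did not pass (adjusted p = 0.146). How many of all genes showed such a reversal was not counted for either flag.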

How the results depend on the processing

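For 8 of the 15 comparisons, 0 guidance genes passed under every alternative run. Over all 9 groups the 3 calls became 7 with the brightness limit at the 60th percentile, cyclic loess, quantile normalization or the sheath covariate, 12 with array weights, 0 with the nerve injury covariate, and 1 to 7 with 1 array left out. Between ages in naive mice the 10 calls became 4 with the nerve injury covariate, 14 at most under the others, and 4 to 10 with 1 array left out. The fewest, 4, came without naive array 3 at 4 weeks, and 6 came without naive array 1 at 16 weeks. Sema6a reversed to 0.17 under the nerve injury covariate. DMM against naive mice at 16 weeks gave 0 to 3 with 1 array left out. Sham against naive mice at 4 weeks gave 1, Plxna2, with the higher brightness limit, cyclic loess, quantile normalization or array weights. Between ages in sham mice the 1 call became 3 with the higher limit, 2 with either normalization, 4 with array weights, and 0 with no filter, the replicate block, either covariate or only the groups compared (0 to 1 with 1 array left out). In DMM mice 1 passed with array weights, and 0 to 1 with 1 array left out. The change of the sham difference gave 3 with cyclic loess, 2 with quantile normalization or array weights, and 0 with no filter, the replicate block, the sheath covariate or only the groups compared (0 to 1 with 1 array left out). The causes were not tested. Of 1306 values of named genes under alternatives, 1198 kept direction and side of the threshold, 79 lost and 28 gained the call.

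Whether same-numbered arrays of the other groups share more than a number is not stated in the labels. Over all 21 pairs r ran from -0.359 to 0.318, with 8 over 0.1, and the highest was between naive and DMM mice at 16 weeks. Only for naive and sham mice at 16 weeks did all 6 arrays correlate best with their own number. Beside the 2 comparisons named, the replicate block moved no count of calls by over 1.5 times, but it ended the calls of Slit1 over the 9 groups (adjusted p = 0.0647) and of Sema5b between ages in naive mice (adjusted p = 0.0508). The number of arrays limits the precision, and 13 of the 68 genes were not above the negative controls.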
